A study of Homo sapiens with 12 samples.

Results

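In all, 10 genes of the NRF2 oxidative stress pathway were followed in cultured HPV+ HNSCC cells, which derive from squamous carcinomas of the head and neck and carry human papillomavirus, treated with JQ1: the transcription factor gene NFE2L2, its inhibitor KEAP1, and NQO1, HMOX1, GCLC, GCLM, SRXN1, TXNRD1, AKR1C1 and SQSTM1. They were taken as the rows of the gene table whose Ensembl identifier carries these symbols, and all 10 were found among the 20738 genes of the table. RNA-seq was available for 12 libraries in 4 groups of 3: UPCI-SCC-090 cells with JQ1, UPCI-SCC-090 cells with DMSO, UM-SCC-47 cells with JQ1 and UM-SCC-47 cells with DMSO. JQ1, a small molecule that displaces the BET bromodomain proteins from acetylated histones, was given at 500 nM, and the control cells received 0.1% DMSO, its solvent. Both treatments lasted 72 h. Each cell line comes from 1 tumor and was grown as a plain culture in dishes, so the groups hold no other genotype, and whether the 3 libraries of a group came from separate cultures is not stated, so that p-values measure the spread between these libraries, which may be technical.

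NRF2, the protein product of NFE2L2, is a transcription factor that is kept scarce in unstressed cells because KEAP1 holds it to a ubiquitin ligase that marks it for degradation. Electrophiles and oxidants modify cysteines of KEAP1, NRF2 then accumulates, pairs with small MAF proteins and binds antioxidant response elements in front of genes of glutathione synthesis, thioredoxin recycling, quinone and carbonyl reduction and heme breakdown. The pathway is regulated to a large part at the level of the protein, which RNA-seq does not measure, and several of its targets also answer to other transcription factors. In squamous carcinomas the pathway is known for its activation by mutations of NFE2L2 or KEAP1, mostly in HPV-negative tumors.

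The core of the antioxidant response element, TGACNNNGC on either strand, was searched in the RefSeq promoter windows of the members (GRCh38.p14, 250 bases before to 50 bases after an annotated transcription start), and the matching stretches are shown because they carry the sequence through which NRF2 is known to act. Windows were found for 9 of the 10 members, 14 windows in all, and HMOX1 had none in the table used. The core was present in 4 of the 14 windows, and in 13.3% of the 35116 promoter windows of all genes. The 4 windows belonged to 3 of the 9 members, GCLM, KEAP1 and TXNRD1. Of 27305 genes, 16.1% had the core in any window. The capitals mark the matches, which are given 5′ to 3′ on the strand of the gene.
GCLM, chr1:93909440-93909480, minus strand: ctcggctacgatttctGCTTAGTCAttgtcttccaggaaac
KEAP1, second start, chr19:10502778-10502841, minus strand: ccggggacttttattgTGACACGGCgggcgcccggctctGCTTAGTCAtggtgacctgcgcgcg
TXNRD1, first start, chr12:104215664-104215779, plus strand: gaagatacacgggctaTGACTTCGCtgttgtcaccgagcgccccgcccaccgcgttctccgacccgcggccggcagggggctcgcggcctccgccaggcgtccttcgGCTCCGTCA
TXNRD1, second start, chr12:104286914-104286954, plus strand: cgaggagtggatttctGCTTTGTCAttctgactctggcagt
The matches began 34 bases before the start of GCLM, 54 and 31 bases before the second start of KEAP1, 99 and 8 bases before the first start of TXNRD1 and 102 bases before its second start. GCLM and KEAP1 held the same match, GCTTAGTCA. A match is a description of these letters only, and the other 6 members with a window had none within it.

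Levels are given as counts scaled to a library of 1e+06 (CPM) after scaling by the trimmed mean of M-values (TMM) over the 12 libraries. Fold changes are on the log2 scale, JQ1 over DMSO, each ± 1 standard error (SE) from a fit of the 6 libraries of 1 line, so they differ a little from ratios of the printed CPM. A gene was called when its p-value from edgeR's quasi-likelihood test, adjusted over all genes by the Benjamini-Hochberg (BH) method, was under 0.05. Total counts per library were between 20349275 and 30788657. The libraries differed in how strongly their counts followed the GC content of the transcripts: relative to the mean of its line, the log2 level changed by 0.66 per 10 percentage points of GC in UPCI-SCC-090 DMSO replicate 2, by -0.73 in UPCI-SCC-090 JQ1 replicate 3 and by -0.51 in UM-SCC-47 JQ1 replicate 3, and by -0.27 to 0.44 in the other 9 libraries. Of 11 squamous epithelial markers, 10 were at 1 CPM or more on average in UPCI-SCC-090 with JQ1 and 11 in each of the other 3 groups, with KRT14 the exception at 0.872 CPM. Their summed level was 4937 to 6929 CPM with JQ1 against 5048 to 5646 CPM with DMSO in UPCI-SCC-090. In UM-SCC-47 it was 38670 to 56724 CPM with JQ1 against 10203 to 11539 CPM with DMSO, where KRT8 and KRT18 were the most abundant. KRT8 averaged 27842 CPM with JQ1 against 5527 CPM with DMSO there, and KRT18 15490 against 2226 CPM. Of the 11 markers, 4 were called higher and 3 lower in UM-SCC-47, beside 16.1% and 25.5% of all genes. KRT5 averaged 172 CPM with JQ1 against 607 CPM with DMSO and TP63 48.5 against 391 CPM, both called lower. The summed level of 8 fibroblast markers was 2.80 to 5.62 CPM with JQ1 against 20.4 to 30.7 CPM with DMSO in UPCI-SCC-090. In UM-SCC-47 it was 5.45 to 6.65 CPM with JQ1 against 13.1 to 15.3 CPM with DMSO. Most of it was COL1A1 in both lines, while COL1A2 and COL3A1 were at 0 in all JQ1 libraries. With DMSO, COL1A2 averaged only 0.0108 CPM in UPCI-SCC-090 and 0.0271 CPM in UM-SCC-47, and COL3A1 0.0906 and 0.629 CPM. Leukocyte and endothelial markers summed to at most 44.4 and 8.26 CPM. The part of these marker and GC differences in the results below was not tested. In bulk RNA, fewer cells of a type and less RNA per cell cannot be told apart.

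The first question was which genes of the pathway changed with JQ1 in each line. In UPCI-SCC-090, 5 of the 10 members were called higher with JQ1, beside 7.67% of the 13150 genes tested, and none was called lower by edgeR, beside 20.4% of all genes. KEAP1 was the 1 member with a lower level at an unadjusted p under 0.05, and DESeq2 also called 0 members lower. In UM-SCC-47, 6 members were called higher, beside 16.1% of the 13440 genes tested, and 1 was called lower, beside 25.5% (in either direction 28.1% of all genes in UPCI-SCC-090 and 41.6% in UM-SCC-47). The median log2 fold change of the members was 1.19 in UPCI-SCC-090 and 1.29 in UM-SCC-47, whereas that of all genes tested was -0.14 and -0.03 in the 2 lines. NQO1, HMOX1, SRXN1 and SQSTM1 were called higher in both lines. In UPCI-SCC-090 the count of 5 was 3 without JQ1 replicate 1 and 8 without JQ1 replicate 2, and DESeq2 called 8. The JQ1 and DMSO libraries did not overlap for 6 members, all higher with JQ1, in UPCI-SCC-090 (beside 16.1% of all genes higher and 24.4% lower) and for 8 members, 7 higher and 1 lower, in UM-SCC-47 (beside 22.8% higher and 32.5% lower).

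**Figure D1:**
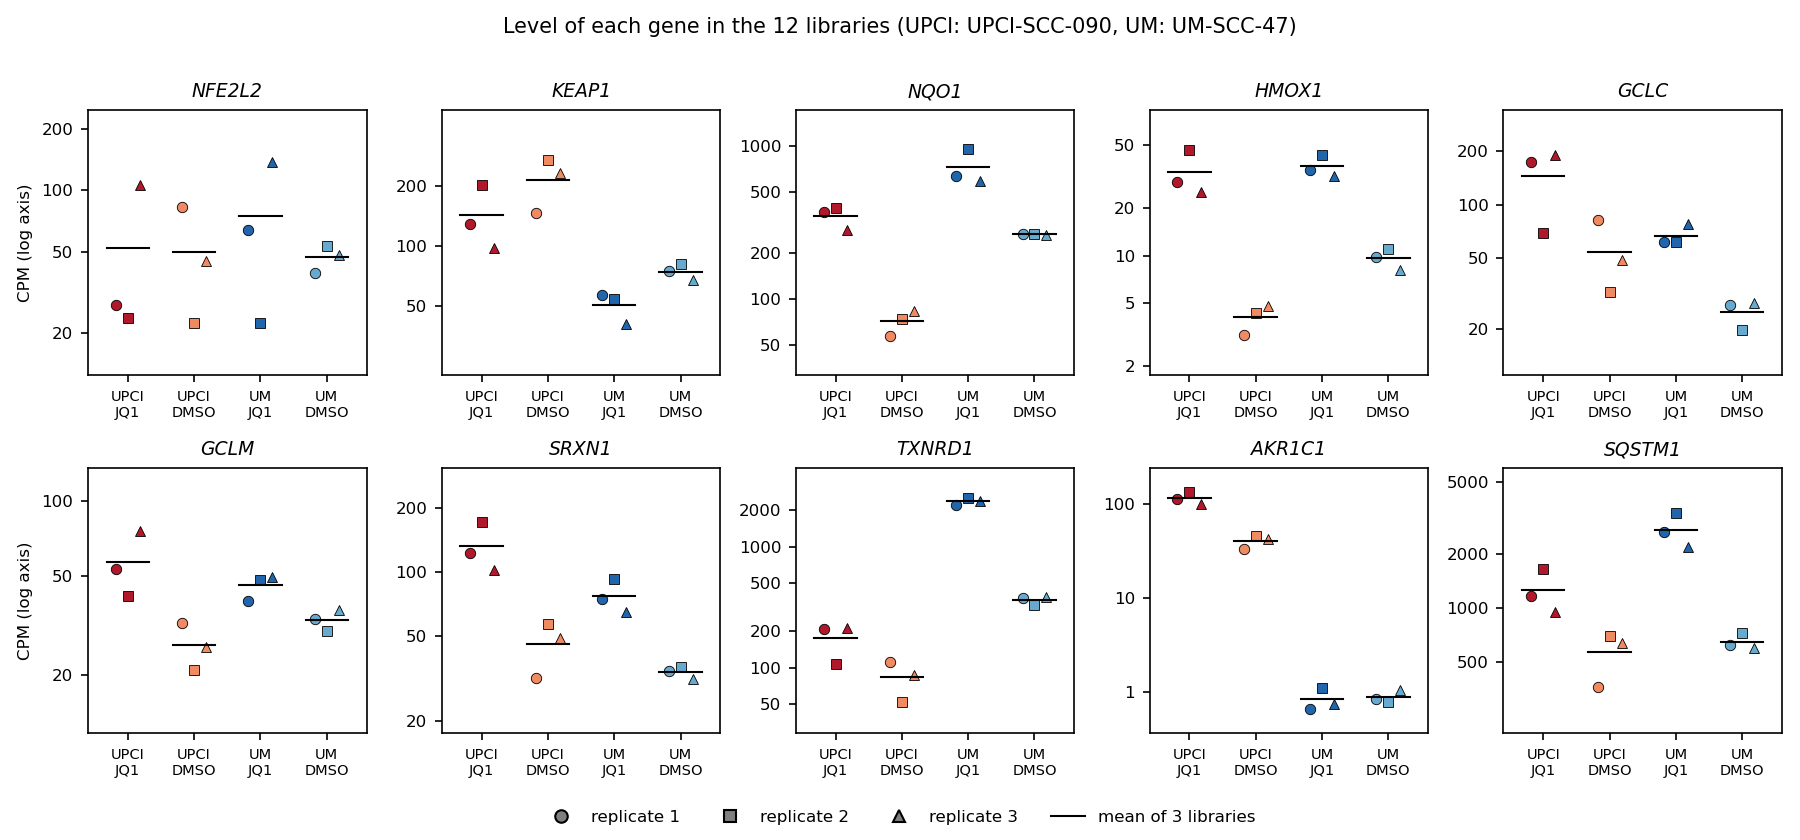
Level of each of the 10 genes in the 12 libraries, as CPM on a log axis; a symbol is 1 library and a line the mean of 3. JQ1 libraries stand above DMSO libraries for NQO1, HMOX1, SRXN1 and SQSTM1 in both lines, NFE2L2 spans 22.3 to 138 CPM with no separation of the groups, and AKR1C1 is near 1 CPM in UM-SCC-47.

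NFE2L2 (ENSG00000116044; chromosome 2, 178083395 to 178257484, minus strand; this and the gene positions that follow are from GENCODE 44 on GRCh37), which encodes NRF2, did not pass the test in either line. It had 27.2, 23.6 and 106 CPM in UPCI-SCC-090 cells with JQ1, against 82.5, 22.3 and 44.9 CPM with DMSO. The groups overlapped, and the log2 fold change was 0.03 ± 0.80 (edgeR BH-adjusted p = 0.99). In UM-SCC-47 cells its level was 63.5, 22.3 and 138 CPM with JQ1, against 39.3, 53.4 and 47.9 CPM with DMSO. Here the JQ1 libraries lay both below and above all DMSO libraries, with a 6.18-fold range, and the log2 fold change was 0.66 ± 0.59 (edgeR BH-adjusted p = 0.41). The 2 highest levels, 138 and 106 CPM, belonged to the 2 libraries with the most negative GC trends, and UPCI-SCC-090 DMSO replicate 2, with the most positive trend, shared the lowest level, 22.3 CPM. The canonical transcript of NFE2L2 has a GC content of 42.1%. With a GC correction the log2 fold change was -0.34 ± 0.54 in UPCI-SCC-090 and 0.36 ± 0.47 in UM-SCC-47, neither called (edgeR BH-adjusted p = 0.66 and 0.57). Leaving out UM-SCC-47 JQ1 replicate 2 gave a call, 1.10 (edgeR BH-adjusted p = 0.045), whereas leaving out replicate 3 gave -0.04, so the mRNA response of NFE2L2 could not be resolved with these libraries.

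KEAP1 (ENSG00000079999; chromosome 19, 10596801 to 10614234, minus strand), the adaptor that targets NRF2 for degradation, had lower levels with JQ1 in both lines and was called in UM-SCC-47 alone. In UPCI-SCC-090 it had 128, 202 and 96.8 CPM with JQ1, against 146, 268 and 231 CPM with DMSO. These groups overlapped, and the log2 fold change was -0.72 ± 0.29 (edgeR BH-adjusted p = 0.11). In UM-SCC-47 it had 56.6, 54.0 and 40.2 CPM with JQ1, against 74.4, 80.6 and 67.3 CPM with DMSO, without overlap, and fell by 0.57 ± 0.17 on the log2 scale (edgeR BH-adjusted p = 0.034). This call was lost in 13 of 16 alternatives, among them without any 1 of the libraries of this line other than JQ1 replicate 2, with adjusted p-values from 0.0077 to 0.19. The difference between the lines in this response was -0.03 ± 0.42 (edgeR BH-adjusted p = 0.99). With a GC content of 60.2%, KEAP1 stood opposite to NFE2L2 in the plot of level against GC trend, where its highest level, 268 CPM, was in the library with the most positive trend and its lowest, 40.2 CPM, in a library with a steep negative trend.

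**Figure D2:**
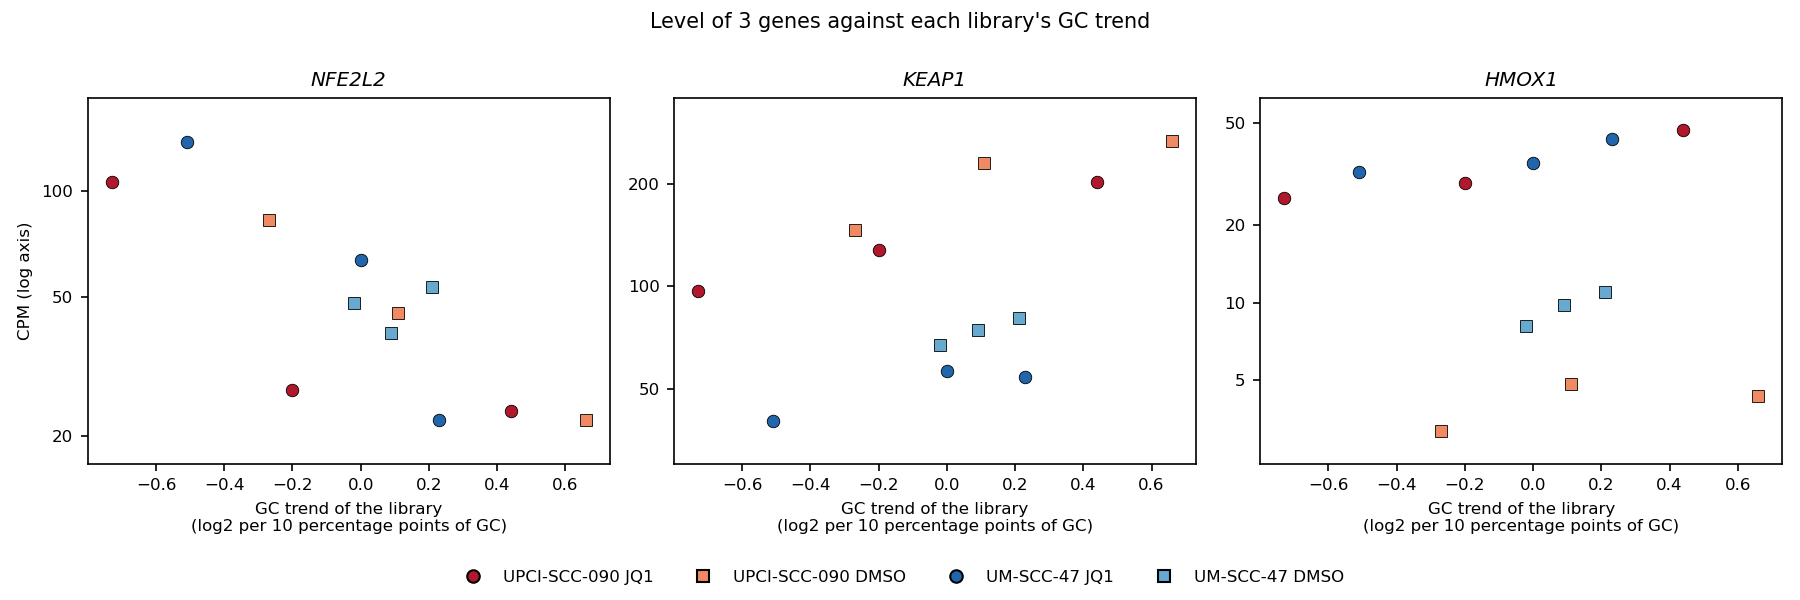
Level of NFE2L2, KEAP1 and HMOX1 in each library (CPM, log axis) against the GC trend of that library, the change of log2 level per 10 percentage points of transcript GC relative to the mean of its line; circles are JQ1 and squares DMSO libraries. NFE2L2 reaches 106 and 138 CPM in the 2 libraries with trends of -0.73 and -0.51, while every JQ1 library of HMOX1 lies above every DMSO library.

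HMOX1 and NQO1 were called higher in both lines. HMOX1 (ENSG00000100292; chromosome 22, 35776354 to 35790207, plus strand) encodes heme oxygenase 1, which splits heme into biliverdin, carbon monoxide and iron. It had 29.2, 46.7 and 25.4 CPM in UPCI-SCC-090 with JQ1, against 3.16, 4.33 and 4.84 CPM with DMSO. Every JQ1 library was above every DMSO library, and the log2 fold change of 2.91 ± 0.32 was the highest of the 10 members in this line (edgeR BH-adjusted p = 0.0038). In UM-SCC-47 HMOX1 had 34.7, 43.3 and 32.2 CPM with JQ1, against 9.76, 11.0 and 8.11 CPM with DMSO. It rose there by 1.92 ± 0.20 (edgeR BH-adjusted p = 7.5e-04), and the mean levels with JQ1 were 33.7 ± 11.4 CPM in UPCI-SCC-090 and 36.7 ± 5.83 CPM in UM-SCC-47 (SD, n = 3 each). The increase was 1.11 ± 0.41 larger in UPCI-SCC-090, which did not pass the test (edgeR BH-adjusted p = 0.15). With a GC correction this difference was 1.17 ± 0.27 and was called (edgeR BH-adjusted p = 0.014). It was called in 2 of 21 alternatives, both with a GC correction. Over the alternatives, adjusted p-values (edgeR or DESeq2) ran from 0.014 to 0.32.

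NQO1 (ENSG00000181019; chromosome 16, 69740899 to 69760571, minus strand) encodes a quinone reductase that is widely used as a readout of NRF2. Its level was 367, 393 and 282 CPM in UPCI-SCC-090 with JQ1, against 56.8, 73.1 and 82.6 CPM with DMSO. In UM-SCC-47 it was 639, 957 and 592 CPM with JQ1, against 263, 265 and 260 CPM with DMSO. NQO1 thus rose without overlap in both lines, by 2.18 ± 0.20 in UPCI-SCC-090 (edgeR BH-adjusted p = 0.0037) and by 1.46 ± 0.20 in UM-SCC-47 (edgeR BH-adjusted p = 0.0021). The difference between the 2 responses, 0.82 ± 0.32, did not pass the test (edgeR BH-adjusted p = 0.17). The calls of HMOX1 and NQO1 in each line held under all 16 alternatives.

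GCLC and GCLM encode the catalytic and the modifier subunit of glutamate-cysteine ligase, which makes the first and rate-limiting bond of glutathione. GCLC (ENSG00000001084; chromosome 6, 53362139 to 53481768, minus strand) had 174, 69.5 and 190 CPM in UPCI-SCC-090 with JQ1, against 81.9, 32.4 and 48.6 CPM with DMSO. Replicate 2 was the lowest library of both groups, the groups overlapped, and the log2 fold change of 1.34 ± 0.56 was not called (edgeR BH-adjusted p = 0.13). In UM-SCC-47 GCLC had 61.7, 61.3 and 77.5 CPM with JQ1, against 27.3, 19.8 and 28.1 CPM with DMSO, and it rose by 1.40 ± 0.19 without overlap (edgeR BH-adjusted p = 0.0021). GCLM (ENSG00000023909; chromosome 1, 94350755 to 94375012, minus strand), with the response element core shown above, had 53.4, 41.5 and 76.1 CPM in UPCI-SCC-090 with JQ1, against 32.4, 20.9 and 25.8 CPM with DMSO. Its level was 39.6, 48.2 and 49.6 CPM in UM-SCC-47 with JQ1, against 33.5, 29.9 and 36.3 CPM with DMSO. The groups of GCLM did not overlap in either line, but the log2 fold changes, 1.04 ± 0.39 in UPCI-SCC-090 and 0.45 ± 0.15 in UM-SCC-47, were not called (edgeR BH-adjusted p = 0.099 and 0.056). In UPCI-SCC-090 GCLC was called in 6 and GCLM in 5 of 16 alternatives, DESeq2 and the fit of all 12 libraries among them, with adjusted p-values from 0.012 to 0.3 for GCLC and from 0.0067 to 0.26 for GCLM.

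SRXN1 and TXNRD1 serve the thioredoxin system. SRXN1 (ENSG00000271303; chromosome 20, 627259 to 633844, minus strand) encodes sulfiredoxin, which repairs overoxidized peroxiredoxins. It had 123, 173 and 102 CPM in UPCI-SCC-090 with JQ1, against 31.8, 57.4 and 49.3 CPM with DMSO, and rose by 1.40 ± 0.27 (edgeR BH-adjusted p = 0.011). In UM-SCC-47 it had 74.5, 92.8 and 65.3 CPM with JQ1, against 34.3, 35.7 and 31.5 CPM with DMSO, and rose by 1.18 ± 0.16 (edgeR BH-adjusted p = 0.0022). No JQ1 library of SRXN1 overlapped a DMSO library in either line. Without UPCI-SCC-090 JQ1 replicate 1 its log2 fold change in that line was 1.60 and lost the call (edgeR BH-adjusted p = 0.053).

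TXNRD1 (ENSG00000198431; chromosome 12, 104609557 to 104744085, plus strand) encodes the cytosolic thioredoxin reductase, which returns thioredoxin to its reduced form with NADPH. It had 209, 107 and 212 CPM in UPCI-SCC-090 with JQ1, against 111, 52.0 and 86.7 CPM with DMSO. Replicate 2 was the lowest library in each group, 1 JQ1 library lay within the DMSO range, and the log2 fold change of 1.00 ± 0.45 was not called (edgeR BH-adjusted p = 0.15). It was called in 7 of 16 alternatives, among them DESeq2, the fit of all 12 libraries, the GC correction (0.77 ± 0.26) and leaving out JQ1 replicate 2 (1.34 ± 0.38), with adjusted p-values from 0.0089 to 0.33. In UM-SCC-47 TXNRD1 had 2227, 2514 and 2388 CPM with JQ1, against 375, 331 and 388 CPM with DMSO. This rise of 2.69 ± 0.13, or 6.46-fold, was the largest of the 10 members in UM-SCC-47 (edgeR BH-adjusted p = 1.3e-04). The response was 1.62 ± 0.42 smaller in UPCI-SCC-090 by the test of the difference (edgeR BH-adjusted p = 0.042). The call of this difference held in 11 of 21 alternatives and was lost without scaling factors (-1.69, edgeR BH-adjusted p = 0.051), and without any 1 of the 6 UM-SCC-47 libraries, UPCI-SCC-090 DMSO replicate 1, DMSO replicate 3 or JQ1 replicate 1 (values from -1.76 to -1.40).

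SQSTM1 (ENSG00000161011; chromosome 5, 179233398 to 179265078, plus strand) encodes p62, an autophagy receptor that binds KEAP1 and is also a target of NRF2. It had 1164, 1656 and 955 CPM in UPCI-SCC-090 with JQ1, against 362, 695 and 638 CPM with DMSO. The groups were separate, and SQSTM1 rose by 1.04 ± 0.26 (edgeR BH-adjusted p = 0.029). In UM-SCC-47 it had 2656, 3357 and 2178 CPM with JQ1, against 625, 721 and 597 CPM with DMSO, and rose by 2.06 ± 0.20, or 4.18-fold (edgeR BH-adjusted p = 5.8e-04). The difference between the lines, -0.92 ± 0.40, did not pass the test (edgeR BH-adjusted p = 0.22). It was called in 2 of 21 alternatives, with a GC correction (-0.80 ± 0.22, edgeR BH-adjusted p = 0.034) and without UPCI-SCC-090 DMSO replicate 1 (-1.27 ± 0.31, edgeR BH-adjusted p = 0.035). In UPCI-SCC-090 the call was lost in 4 of 16 alternatives, with library size only (0.84 ± 0.27, edgeR BH-adjusted p = 0.056) and without DMSO replicate 2, DMSO replicate 3 or JQ1 replicate 1 (log2 fold change 1.19, 1.13 and 1.23, edgeR BH-adjusted p = 0.051, 0.074 and 0.079).

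**Figure D3:**
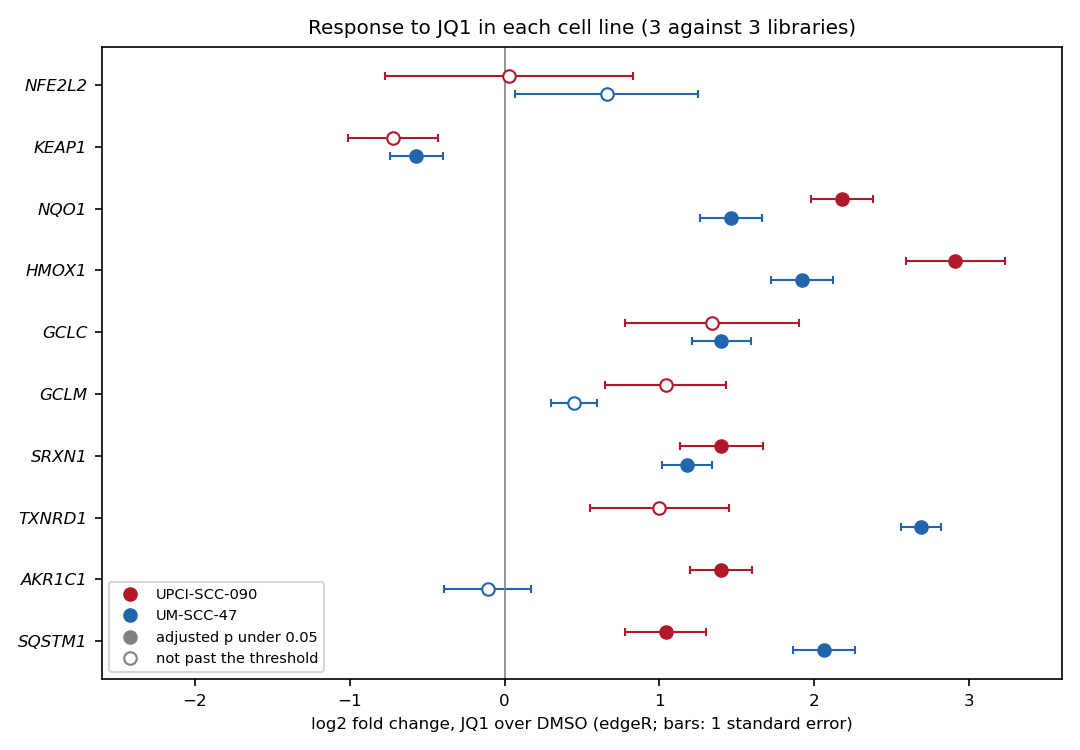
Log2 fold change, JQ1 over DMSO, of each gene in UPCI-SCC-090 (red) and UM-SCC-47 (blue), with bars of 1 standard error; filled points passed an adjusted p of 0.05. HMOX1 has the highest value in UPCI-SCC-090 (2.91) and TXNRD1 in UM-SCC-47 (2.69), and AKR1C1 is called in UPCI-SCC-090 only, with an interaction of 1.61.

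AKR1C1 (ENSG00000187134; chromosome 10, 5005445 to 5025475, plus strand) encodes an aldo-keto reductase that reduces ketosteroids and reactive carbonyls. It had 112, 135 and 100 CPM in UPCI-SCC-090 with JQ1, against 33.1, 45.6 and 43.0 CPM with DMSO, and rose by 1.40 ± 0.20 without overlap (edgeR BH-adjusted p = 0.0051). In UM-SCC-47 it was close to the limit of detection, at 0.669, 1.12 and 0.758 CPM with JQ1, against 0.861, 0.790 and 1.05 CPM with DMSO, which rests on 53 and 72 counts summed over the 3 libraries. The log2 fold change there was -0.11 ± 0.28 and its sign changed under some alternatives, from -0.36 to 0.08 (edgeR BH-adjusted p = 0.79). The response was 1.61 ± 0.37 larger in UPCI-SCC-090 (edgeR BH-adjusted p = 0.025). This call held in 13 of 21 alternatives and was lost with a GC correction (1.51, edgeR BH-adjusted p = 0.12), with a GC correction and replicate block (1.51, edgeR BH-adjusted p = 0.078), without the 3 libraries of steep GC trends (1.78, edgeR BH-adjusted p = 0.069) and without UM-SCC-47 DMSO replicates 1, 2 or 3, UM-SCC-47 JQ1 replicate 1 or UPCI-SCC-090 JQ1 replicate 1, each left out alone (1.45 to 1.69).

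Reads of AKR1C1 are hard to assign, since 26.8% of the 31-base words of its protein-coding transcripts in GENCODE 44 also occur in those of AKR1C2 and 3.27% in those of AKR1C3, both steroid-reducing neighbors on chromosome 10. Conversely, 46.7% of the words of AKR1C2 occur in the transcripts of AKR1C1. AKR1C2 had 114, 125 and 95.1 CPM in UPCI-SCC-090 with JQ1, against 53.3, 79.5 and 74.0 CPM with DMSO, and its log2 fold change of 0.58 ± 0.21 was not called (edgeR BH-adjusted p = 0.083). In UM-SCC-47 it stayed below the filter on low counts, at 0.111 to 0.253 CPM with JQ1 against 0.262 to 0.639 CPM with DMSO. AKR1C3 went the other way in UPCI-SCC-090, with 0.836, 0.339 and 0.384 CPM with JQ1, against 7.28, 5.43 and 7.33 CPM with DMSO, and fell by 3.77 ± 0.47 (edgeR BH-adjusted p = 0.0041). In UM-SCC-47 AKR1C3 had 7.13, 9.95 and 6.88 CPM with JQ1, against 5.29, 4.81 and 4.10 CPM with DMSO, and rose by 0.74 ± 0.22 (edgeR BH-adjusted p = 0.037), a call that held in 5 of 16 alternatives and was lost without any 1 of the libraries of this line other than JQ1 replicate 3. The 3 neighbors thus differed in direction within UPCI-SCC-090, and how the estimated counts were divided among them was not tested.

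**Figure D4:**
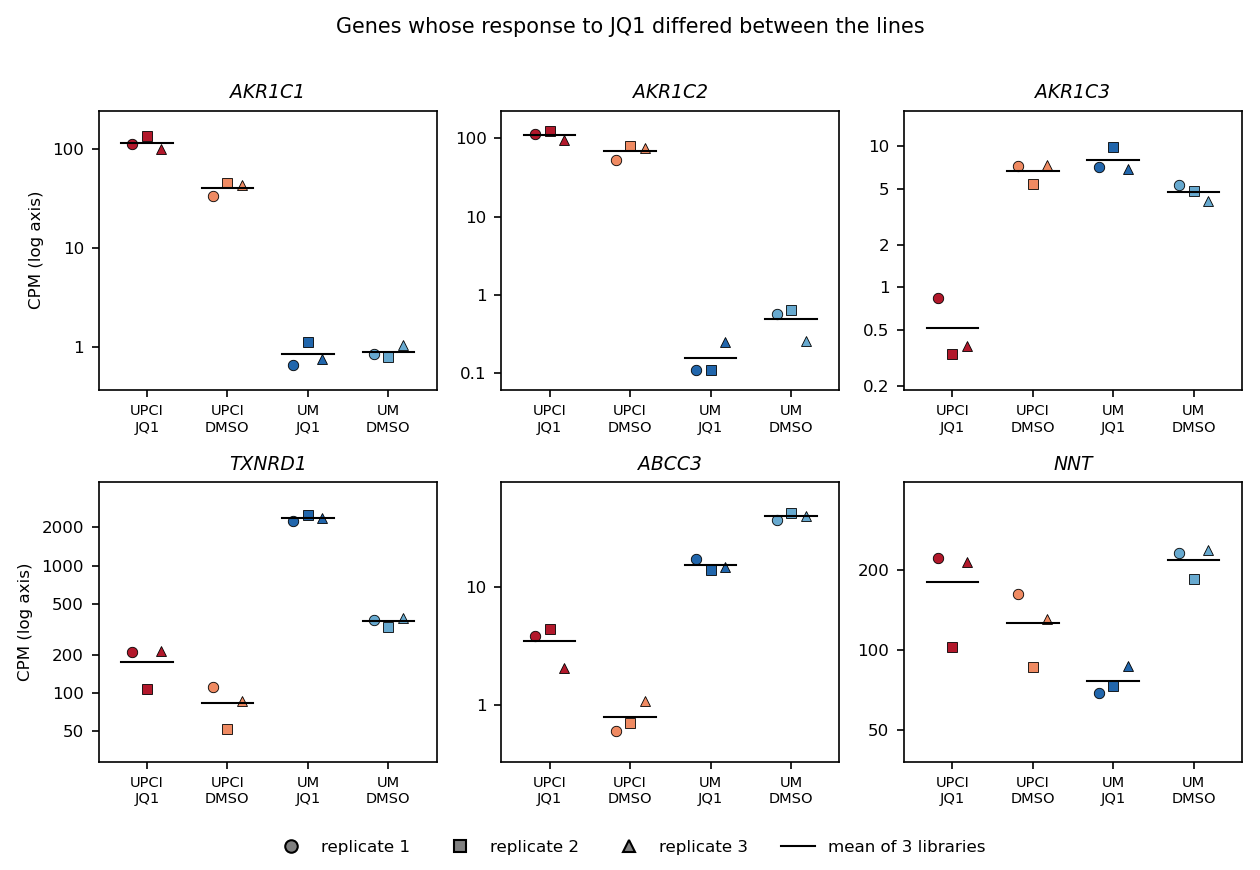
Level (CPM, log axis) of 6 genes whose response to JQ1 differed between the lines by the interaction test; a symbol is 1 library and a line the mean of 3. AKR1C1 is higher with JQ1 in UPCI-SCC-090 and near 1 CPM in all UM-SCC-47 libraries, while AKR1C3 falls with JQ1 in UPCI-SCC-090 to below 1 CPM.

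The lines were next compared without JQ1, which gives the level of each gene in the solvent controls after 72 h. In the 12-library fit, 3 members were called higher in the DMSO libraries of UPCI-SCC-090 than in those of UM-SCC-47, beside 23.3% of 14396 genes, and 3 were called lower, beside 19.9% (43.2% in either direction). The DMSO libraries did not overlap for these 6 members, beside 30.5% of all genes higher and 27.5% lower. The members' share, 3 of 10 in each direction, was near that of all genes, and nothing particular to the members is read from it. AKR1C1 averaged 40.5 ± 6.60 CPM in UPCI-SCC-090 and 0.899 ± 0.133 CPM in UM-SCC-47 (SD, n = 3 each), a log2 difference of 5.49 ± 0.30 (edgeR BH-adjusted p = 1.4e-07). KEAP1 averaged 215 ± 62.7 CPM in UPCI-SCC-090 and 74.1 ± 6.64 CPM in UM-SCC-47, a log2 difference of 1.54 ± 0.30 (edgeR BH-adjusted p = 0.0014). GCLC was the third gene higher in UPCI-SCC-090, by 1.12 ± 0.40 (edgeR BH-adjusted p = 0.04), a call that held in 9 of 21 alternatives and was lost without any 1 of 9 libraries, with values as low as 0.47 without UPCI-SCC-090 DMSO replicate 1.

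TXNRD1, NQO1 and HMOX1 were the genes with lower DMSO levels in UPCI-SCC-090. TXNRD1 averaged 83.1 ± 29.5 CPM in UPCI-SCC-090 and 364 ± 29.8 CPM in UM-SCC-47, a log2 difference of -2.13 ± 0.31 (edgeR BH-adjusted p = 1.6e-04). NQO1 averaged 70.9 ± 13.1 CPM in UPCI-SCC-090 and 262 ± 2.64 CPM in UM-SCC-47, a difference of -1.89 ± 0.23 (edgeR BH-adjusted p = 4.4e-05). HMOX1 averaged 4.11 ± 0.864 CPM in UPCI-SCC-090 and 9.63 ± 1.46 CPM in UM-SCC-47, a difference of -1.23 ± 0.30 (edgeR BH-adjusted p = 0.0056). These calls and those of AKR1C1 and KEAP1 held in all 21 alternatives. NFE2L2, GCLM, SRXN1 and SQSTM1 were not called, with log2 differences of 0.09 ± 0.70, -0.33 ± 0.26, 0.45 ± 0.27 and -0.20 ± 0.28 (edgeR BH-adjusted p = 0.93, 0.34, 0.2 and 0.62), and their DMSO libraries overlapped.

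For the response itself, the test of the difference between the lines called 1 member higher, AKR1C1, beside 2.93% of 14396 genes, and 1 lower, TXNRD1, beside 3.63% (6.56% in either direction). The remaining 8 had differences between -0.92 (SQSTM1) and 1.11 (HMOX1) and were not called. Of these, NFE2L2, GCLC, GCLM and SRXN1 differed by -0.61 ± 0.99, -0.00 ± 0.46, 0.65 ± 0.37 and 0.33 ± 0.38 (edgeR BH-adjusted p = 0.83, 1, 0.38 and 0.74), so that an SE of up to 0.99 leaves room for differences that these libraries could not resolve.

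Beyond the members, 156 genes of 8 pathway lists were read from the same fits, and 154 were found in the table. In UPCI-SCC-090, 29 of 145 tested genes (20.0%) were called higher and 19 (13.1%) lower with JQ1, beside 7.67% and 20.4% of all genes. In UM-SCC-47, 51 of 144 (35.4%) were called higher and 27 (18.8%) lower, beside 16.1% and 25.5% of all genes. The median log2 fold change of the lists was 0.31 in UPCI-SCC-090 and 0.36 in UM-SCC-47. The split depended on the scaling. Without scaling factors it was 20 higher and 23 lower in UPCI-SCC-090 and 37 and 36 in UM-SCC-47, and with RLE size factors 36 higher and 10 lower in UPCI-SCC-090. Leaving out UPCI-SCC-090 JQ1 replicate 1 gave 12 higher and 7 lower in that line. Leaving out its DMSO replicate 2 gave 16 and 9, its DMSO replicate 3 gave 14 and 8, and its JQ1 replicate 3 gave 26 and 8.

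**Figure D5:**
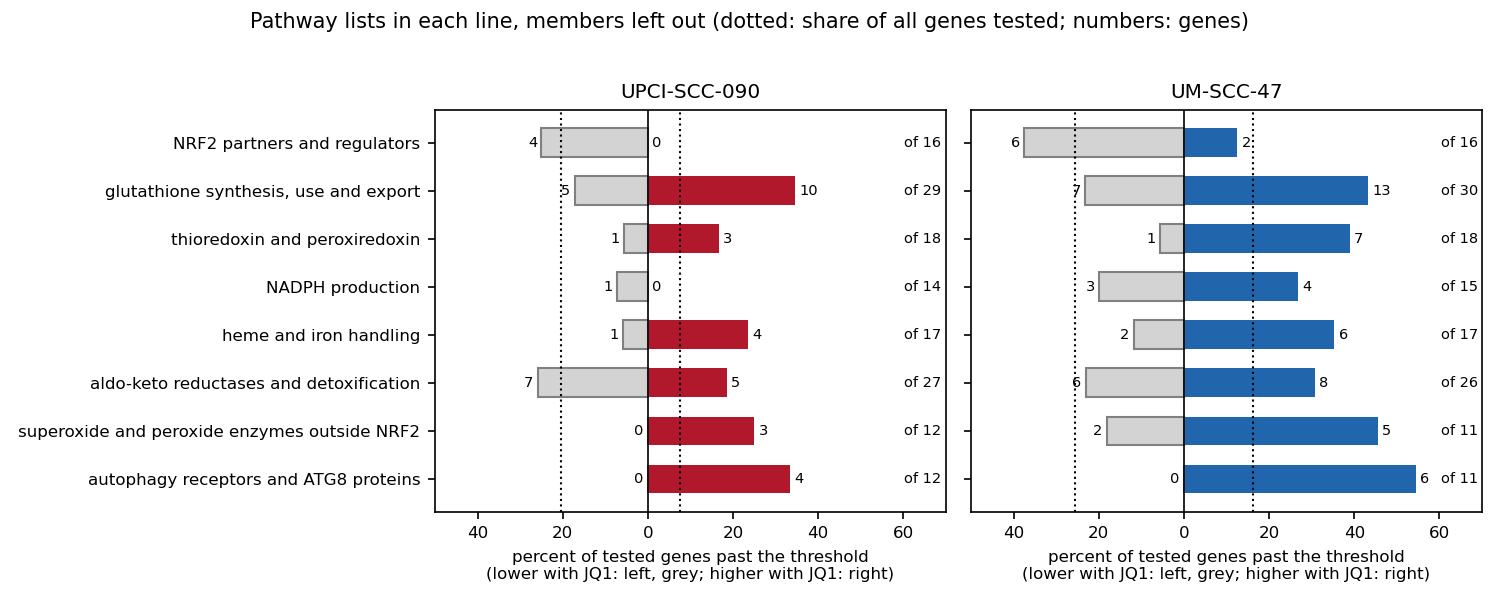
Share of the tested genes of 8 pathway lists called higher (right) or lower (left, grey) with JQ1 in each line, members left out; numbers are genes and dotted lines the shares over all genes tested. The autophagy list has 4 of 12 genes higher in UPCI-SCC-090 and 6 of 11 in UM-SCC-47, and the list of NRF2 partners has more genes lower than higher in both lines, as do all genes tested.

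Among the partners and regulators of NRF2, 4 of 16 genes were called lower and 0 higher in UPCI-SCC-090 (edgeR; 1 higher at an unadjusted p under 0.05 and 1 by DESeq2), and 6 were called lower and 2 higher in UM-SCC-47. The share called lower was 25.0% in UPCI-SCC-090, near the 20.4% of all genes there, and 37.5% in UM-SCC-47, beside 25.5% of all genes, and the share called higher in UM-SCC-47 was 12.5%, beside 16.1%. CREBBP, an acetyltransferase that serves NRF2 as a coactivator, averaged 8.88 ± 3.39 CPM with JQ1 against 136 ± 43.1 CPM with DMSO in UPCI-SCC-090, and 10.5 ± 3.56 CPM with JQ1 against 56.4 ± 3.12 CPM with DMSO in UM-SCC-47 (SD, n = 3 each). It fell by 4.08 ± 0.39 in UPCI-SCC-090 and by 2.44 ± 0.28 in UM-SCC-47 (edgeR BH-adjusted p = 0.0037 and 0.0011). PGAM5, a mitochondrial phosphatase that binds KEAP1, fell by 3.17 ± 0.53 and 1.04 ± 0.19 (edgeR BH-adjusted p = 0.0071 and 0.0057). BACH2, a repressor that binds the same elements, had a log2 fold change of -1.26 ± 0.45 in UPCI-SCC-090 (edgeR BH-adjusted p = 0.086) and fell by 2.07 ± 0.25 in UM-SCC-47 (edgeR BH-adjusted p = 0.0013). The 2 genes that rose in UM-SCC-47 were DPP3, which binds KEAP1, by 0.89 ± 0.17 (edgeR BH-adjusted p = 0.0067), and MAFK, a small MAF partner of NRF2, by 0.58 ± 0.15 (edgeR BH-adjusted p = 0.023). The call of MAFK was lost in 6 of 16 alternatives, among them without DMSO replicate 1, DMSO replicate 3 or JQ1 replicate 1, and that of DPP3 in the fit of all 12 libraries.

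In the glutathione list, 10 of 29 genes were called higher and 5 lower in UPCI-SCC-090, and 13 of 30 higher and 7 lower in UM-SCC-47. The shares called higher were 34.5% in UPCI-SCC-090 and 43.3% in UM-SCC-47, beside 7.67% and 16.1% of all genes. Those called lower, 17.2% and 23.3%, were near the 20.4% and 25.5% of all genes. GPX3, a secreted glutathione peroxidase, rose by 2.82 ± 0.30 in UPCI-SCC-090 and by 1.73 ± 0.25 in UM-SCC-47 (edgeR BH-adjusted p = 0.0037 and 0.0024). SLC3A2, the heavy chain of the cystine transporter, had a log2 fold change of 0.30 ± 0.28 in UPCI-SCC-090 (edgeR BH-adjusted p = 0.5) and rose by 1.73 ± 0.18 in UM-SCC-47 (edgeR BH-adjusted p = 7.5e-04). GPX2, an epithelial glutathione peroxidase and known NRF2 target, went in opposite directions. It had 220, 306 and 180 CPM with JQ1 (from 4699 to 6315 counts), against 56.5, 88.2 and 75.3 CPM with DMSO in UPCI-SCC-090, and 0, 0.337 and 0.253 CPM with JQ1, against 5.52, 5.68 and 4.36 CPM with DMSO in UM-SCC-47. The JQ1 libraries of UM-SCC-47 held 0, 6 and 5 counts of GPX2, 11 in sum, so the size of its fall there is imprecise. It rose by 1.56 ± 0.23 in UPCI-SCC-090 and fell by 4.82 ± 0.74 in UM-SCC-47 (edgeR BH-adjusted p = 0.0051 and 0.0031). ABCC3, an exporter of glutathione and glucuronide conjugates, likewise rose by 1.98 ± 0.37 in UPCI-SCC-090, where it averaged below 1 CPM with DMSO, and fell by 1.39 ± 0.15 in UM-SCC-47 (edgeR BH-adjusted p = 0.01 and 9.1e-04). In UPCI-SCC-090 the glutathione transferase gene GSTA4 rose by 2.04 ± 0.34, while GSTM1 and GSTM4, which are close in sequence, fell by 2.49 ± 0.27 and 1.87 ± 0.30 (edgeR BH-adjusted p = 0.0071, 0.0037 and 0.0063). The call of GSTM4 there was lost without JQ1 replicate 1 and without the libraries of steep GC trends. GSTM4 was called lower in UM-SCC-47 too, by 1.16 ± 0.16 (edgeR BH-adjusted p = 0.002), whereas GSTM1 stayed below the filter on low counts in that line.

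Of 18 thioredoxin and peroxiredoxin genes, 3 were called higher and 1 lower in UPCI-SCC-090, and 7 higher and 1 lower in UM-SCC-47. Higher were thus 16.7% in UPCI-SCC-090 and 38.9% in UM-SCC-47, beside 7.67% and 16.1% of all genes. Lower were 5.56% in each line, beside 20.4% and 25.5% of all genes. PRDX1, a peroxiredoxin that removes hydrogen peroxide, averaged 1184 ± 130 CPM with JQ1 against 346 ± 59.9 CPM with DMSO in UPCI-SCC-090, and 1529 ± 455 CPM with JQ1 against 488 ± 26.7 CPM with DMSO in UM-SCC-47 (SD, n = 3 each). It rose by 1.67 ± 0.17 and 1.63 ± 0.22 in the 2 lines (edgeR BH-adjusted p = 0.0037 and 0.002). TXN, the thioredoxin that TXNRD1 reduces, rose by 1.58 ± 0.24 in UPCI-SCC-090 (edgeR BH-adjusted p = 0.0055) and had 0.41 ± 0.18 in UM-SCC-47 (edgeR BH-adjusted p = 0.12), the reverse order of the lines to that of TXNRD1. SESN3 and SESN1, stress-induced sestrins, rose by 3.56 ± 0.44 and 1.69 ± 0.17 in UM-SCC-47 (edgeR BH-adjusted p = 0.0014 and 6.9e-04), and the mitochondrial reductase gene TXNRD2 fell by 1.50 ± 0.18 (edgeR BH-adjusted p = 0.0012). None of these was called in UPCI-SCC-090, where SESN3, SESN1 and TXNRD2 had 0.13 ± 0.77, 2.01 ± 0.66 and -1.12 ± 0.36 (edgeR BH-adjusted p = 0.93, 0.065 and 0.061).

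The NADPH list had 0 genes called higher by edgeR in UPCI-SCC-090 (2 at an unadjusted p under 0.05 and 2 by DESeq2) and 1 called lower, out of 14, and 4 higher and 3 lower of 15 in UM-SCC-47. Of all genes, 7.67% were called higher and 20.4% lower in UPCI-SCC-090. In UM-SCC-47 the list had 26.7% higher and 20.0% lower, beside 16.1% and 25.5% of all genes. NNT, the mitochondrial transhydrogenase, had a log2 fold change of 0.43 ± 0.44 in UPCI-SCC-090 (edgeR BH-adjusted p = 0.53) and fell by 1.52 ± 0.16 in UM-SCC-47 (edgeR BH-adjusted p = 7.6e-04). The malic enzyme gene ME3 fell by 1.64 ± 0.14 and ME2 rose by 0.63 ± 0.20 in UM-SCC-47 (edgeR BH-adjusted p = 4.3e-04 and 0.045), ME2 in 7 of 16 alternatives and not without DMSO replicate 1, DMSO replicate 2, JQ1 replicate 1 or JQ1 replicate 2. MTHFD1, a folate enzyme, was the gene called lower in UPCI-SCC-090, by 0.76 ± 0.19 (edgeR BH-adjusted p = 0.027), and that call held in 7 of 16 alternatives and was lost without DMSO replicate 2, DMSO replicate 3, JQ1 replicate 1 or JQ1 replicate 3. MTHFD1 was called lower in UM-SCC-47 too, by 1.34 ± 0.12 without overlap (edgeR BH-adjusted p = 5.3e-04).

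Heme and iron genes included the ferritin light chain gene FTL, next to HMOX1 in function because ferritin stores the iron that heme oxygenase frees. FTL had 2853, 3479 and 2541 CPM with JQ1, against 277, 456 and 494 CPM with DMSO in UPCI-SCC-090. In UM-SCC-47 it had 3581, 5111 and 2691 CPM with JQ1, against 585, 606 and 588 CPM with DMSO. FTL rose in both lines without overlap, by 2.75 ± 0.24 and 2.66 ± 0.25 (edgeR BH-adjusted p = 0.0037 and 5.8e-04). The heavy chain gene FTH1 rose by 1.35 ± 0.21 in UPCI-SCC-090 (edgeR BH-adjusted p = 0.0056) and had 0.60 ± 0.24 in UM-SCC-47 (edgeR BH-adjusted p = 0.092). The list as a whole had 4 of 17 genes higher and 1 lower in UPCI-SCC-090, and 6 of 17 higher and 2 lower in UM-SCC-47. These were 23.5% and 35.3% higher in the 2 lines, beside 7.67% and 16.1% of all genes, and 5.88% and 11.8% lower, beside 20.4% and 25.5%. In UM-SCC-47 the iron exporter gene SLC40A1 rose by 2.69 ± 0.52 (edgeR BH-adjusted p = 0.0071). The heme exporter gene FLVCR1 and the iron importer gene SLC11A2 fell there by 1.43 ± 0.29 and 0.75 ± 0.15 (edgeR BH-adjusted p = 0.0094 and 0.0087). The call of SLC11A2 was lost without DMSO replicate 1. FTL, FTH1 and PRDX1 have processed pseudogenes, and reads shared with these were not resolved here.

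In the list of aldo-keto reductases and detoxification, 5 of 27 genes were called higher and 7 lower in UPCI-SCC-090, and 8 of 26 higher and 6 lower in UM-SCC-47. Shares called lower, 25.9% in UPCI-SCC-090 and 23.1% in UM-SCC-47, were near the 20.4% and 25.5% of all genes. Shares called higher were 18.5% and 30.8%, beside 7.67% and 16.1%. AKR7A2 and ALDH3A2, which clear aldehydes, rose in both lines, by 1.07 ± 0.28 and 1.53 ± 0.18 in UPCI-SCC-090 (edgeR BH-adjusted p = 0.032 and 0.0038) and by 1.15 ± 0.23 and 1.14 ± 0.13 in UM-SCC-47 (edgeR BH-adjusted p = 0.0081 and 0.0012). PTGR1, a reductase of lipid enals, rose by 1.73 ± 0.38 and 0.83 ± 0.18 (edgeR BH-adjusted p = 0.018 and 0.011), and its call in UPCI-SCC-090 was lost without DMSO replicate 2, DMSO replicate 3 or JQ1 replicate 1. OSGIN1 rose by 1.61 ± 0.19 in UM-SCC-47 (edgeR BH-adjusted p = 0.0012). CBR3, a carbonyl reductase, fell by 2.12 ± 0.31 in UPCI-SCC-090 and by 0.96 ± 0.28 in UM-SCC-47 (edgeR BH-adjusted p = 0.0052 and 0.036), the call in UM-SCC-47 holding in 8 of 16 alternatives and lost without any 1 of the libraries of this line other than JQ1 replicate 2. TRIM16L fell by 1.23 ± 0.21 in UM-SCC-47 (edgeR BH-adjusted p = 0.0044) and had -1.30 ± 0.44 in UPCI-SCC-090, not called (edgeR BH-adjusted p = 0.07). AHR, the aryl hydrocarbon receptor, fell by 2.53 ± 0.75 in UPCI-SCC-090 (edgeR BH-adjusted p = 0.048), a call that was lost without any 1 of the libraries of that line other than DMSO replicate 2.

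Of the enzymes of superoxide and peroxide handling that are not classic NRF2 targets, 3 of 12 were called higher in UPCI-SCC-090 and 0 lower by edgeR (1 at an unadjusted p under 0.05, 0 by DESeq2), and 5 of 11 higher and 2 lower in UM-SCC-47. That is 25.0% higher in UPCI-SCC-090, beside 7.67% of all genes higher and 20.4% lower. In UM-SCC-47 it is 45.5% higher and 18.2% lower, beside 16.1% and 25.5%. SOD1, the cytosolic superoxide dismutase, and CCS, its copper chaperone, rose by 1.29 ± 0.18 and 1.55 ± 0.31 in UPCI-SCC-090 (edgeR BH-adjusted p = 0.005 and 0.013) and by 1.23 ± 0.16 and 1.36 ± 0.16 in UM-SCC-47 (edgeR BH-adjusted p = 0.0017 and 0.0012). CAT, catalase, rose by 1.36 ± 0.38 and 0.93 ± 0.15 (edgeR BH-adjusted p = 0.04 and 0.0037), in UPCI-SCC-090 in 10 of 16 alternatives and not without DMSO replicate 2, DMSO replicate 3, JQ1 replicate 1 or JQ1 replicate 3. The call of CCS in UPCI-SCC-090 was lost without DMSO replicate 3 or JQ1 replicate 1. The hydrogen peroxide producing oxidase genes DUOX2 and DUOX1 fell by 2.64 ± 0.17 and 0.85 ± 0.19 in UM-SCC-47 (edgeR BH-adjusted p = 2.0e-04 and 0.014), DUOX1 in 10 of 16 alternatives and not without any 1 of the 3 DMSO libraries.

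The autophagy genes around SQSTM1 were called in the higher direction alone: 4 of 12 in UPCI-SCC-090 and 6 of 11 in UM-SCC-47, with 0 called lower by edgeR or DESeq2 and 0 lower at an unadjusted p under 0.05 in either line. Higher calls made up 33.3% in UPCI-SCC-090 and 54.5% in UM-SCC-47, beside 7.67% and 16.1% of all genes. Of all genes, 20.4% and 25.5% were called lower. MAP1LC3B, the LC3 protein to which SQSTM1 binds, averaged 143 ± 13.4 CPM with JQ1 against 64.7 ± 2.23 CPM with DMSO in UPCI-SCC-090, and 163 ± 22.6 CPM with JQ1 against 58.2 ± 1.66 CPM with DMSO in UM-SCC-47 (SD, n = 3 each). It rose by 1.05 ± 0.21 and 1.47 ± 0.14 (edgeR BH-adjusted p = 0.014 and 5.3e-04). GABARAPL1 and GABARAPL2, relatives of LC3, rose by 1.26 ± 0.22 and 1.99 ± 0.19 in UPCI-SCC-090 (edgeR BH-adjusted p = 0.0085 and 0.0037) and by 2.01 ± 0.17 and 0.96 ± 0.20 in UM-SCC-47 (edgeR BH-adjusted p = 3.8e-04 and 0.01). The call of GABARAPL1 in UPCI-SCC-090 was lost without JQ1 replicate 1.

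The genes most like HMOX1, NQO1 and NFE2L2 over the 12 libraries were found by the root mean square (RMS) difference of log2 levels, each centred on its own mean, among 11648 genes. HMOX1 was closest to GADD45A (RMS 0.29), SIRT4 (0.30) and FTL (0.33). GADD45A averaged 101 ± 14.6 CPM with JQ1 against 18.3 ± 0.921 CPM with DMSO in UPCI-SCC-090, and 167 ± 19.6 CPM with JQ1 against 34.9 ± 1.54 CPM with DMSO in UM-SCC-47. NQO1 was closest to ASNS (0.24), GSTK1 (0.33) and BCAS4 (0.34), and ASNS averaged 159 ± 8.15 CPM with JQ1 against 44.1 ± 5.49 CPM with DMSO in UPCI-SCC-090, and 298 ± 69.4 CPM with JQ1 against 125 ± 7.79 CPM with DMSO in UM-SCC-47. NFE2L2 was closest to NOP58 (0.20), ODR4 (0.23) and UGP2 (0.23), which shared its wide spread within groups, UGP2 with 40.4 ± 28.6 CPM with JQ1 against 48.2 ± 24.1 CPM with DMSO in UPCI-SCC-090 and 70.8 ± 61.3 CPM with JQ1 against 42.8 ± 13.3 CPM with DMSO in UM-SCC-47. These are distances between profiles that share libraries, line and treatment, and were not tested.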

How the data were processed

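RNA-seq of ribosome-depleted total RNA was measured in 12 libraries, 3 in each of 4 groups assigned from the sample labels. The authors deposited estimated counts per gene, made with Salmon 0.8.2, and their processing notes also name DESeq2 1.28.0; no source used here gives the transcript index or build. The counts were rounded to whole numbers. Of 20738 genes, 20015 were matched to GENCODE 44 on GRCh37 for symbols, positions and GC content. The members and lists were chosen with earlier results of these data known.

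Genes were filtered with filterByExpr (minimum count 10, minimum total 15), scaled by TMM and tested with edgeR 4.0.16 in R 4.3.3 (glmQLFit, glmQLFTest), each line fitted alone. The difference between responses (UPCI-SCC-090 minus UM-SCC-47) and the line difference with DMSO came from 1 fit of all 12 libraries. P-values were adjusted over all genes tested, with calls under 0.05. SEs were taken as the size of the log2 fold change over the root of its F statistic. The named pathway genes are, for each list, line and direction, up to 2 called genes with the largest changes, a mean of 5 CPM or more in the higher group and no overlap, together with AKR1C2 and AKR1C3 as neighbors of AKR1C1. A gene that this rule names is not reported here. GC trends used log2 CPM with a prior count of 2, and an absolute slope over 0.45 was taken as steep. Alternatives were RLE and upper-quartile factors, library size only, no filter, DESeq2 1.42.0, a replicate block, GC correction, 1 fit over all libraries, and leaving out libraries. The fits were run on simulated counts, drawn for each library alone and without GC trends. Such counts cannot show how often calls are false in libraries with GC trends. No replicate pair agreed within sampling noise (chi-square per gene 8.25 to 425). Promoter sequences are from RefSeq (GRCh38.p14), and their coordinates were not compared with those on GRCh37.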

Additional observations from a re-analysis of the deposited data

Results flagged for a closer look

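The response to JQ1 differed between the lines, by the interaction test of edgeR, for 2 of the 10 members and 9 of 44 named pathway genes, beside 6.56% of all genes. The named genes were picked for large changes within a line, and of all 149 pathway genes tested, 10 were called higher (6.71%) and 4 lower (2.68%), beside 2.93% and 3.63% of all genes. As the response in UPCI-SCC-090 minus that in UM-SCC-47 on the log2 scale, TXNRD1 had -1.62 ± 0.42 (adjusted p = 0.042) and AKR1C1 1.61 ± 0.37 (adjusted p = 0.025), called in 11 and 13 of 21 alternatives. GPX2 had 6.50 ± 0.75 (adjusted p = 6.1e-04), ABCC3 3.49 ± 0.46 (adjusted p = 0.0014) and AKR1C3 -4.41 ± 0.50 (adjusted p = 5.6e-04), and these 3 were called in all 21 alternatives.

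The other 6 lost the call in some alternatives. NNT had 2.01 ± 0.44 (edgeR adjusted p = 0.019; called in 14 of 21), AKR1C2 2.33 ± 0.53 (edgeR adjusted p = 0.025; 13 of 21), and DUOX2 1.92 ± 0.45 (edgeR adjusted p = 0.028; 16 of 21). TXN had 1.26 ± 0.31 (edgeR adjusted p = 0.033) and was called in 8 of 21, SESN3 had -3.42 ± 0.90 (edgeR adjusted p = 0.045) and was called in 13 of 21, and GABARAPL2 had 1.13 ± 0.30 (edgeR adjusted p = 0.044) and was called in 4 of 21. AKR1C2 rests on levels under 1 CPM in UM-SCC-47, and GPX2 on 11 counts in the 3 JQ1 libraries of that line.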

How the results depend on the processing

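Scaling moved the median log2 fold change of all genes, which was -0.14 with TMM, 0.14 with RLE and -0.38 with library size only in UPCI-SCC-090, and -0.03, 0.12 and -0.28 in UM-SCC-47. All genes split into 1009 higher and 2680 lower with TMM, 1287 and 1755 with RLE and 635 and 3069 with library size only in UPCI-SCC-090, and into 2163 and 3431, 2622 and 2846, and 1456 and 4589 in UM-SCC-47. The calls of NQO1 and HMOX1 in both lines, of AKR1C1 in UPCI-SCC-090, and of GCLC, SRXN1, TXNRD1 and SQSTM1 in UM-SCC-47 held in all 16 alternatives.

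Members called higher in UPCI-SCC-090 were 8, not 5, with RLE, DESeq2, GC correction with replicate block or 1 fit, and 3 to 8 with 1 library left out. The 1 member called lower in UM-SCC-47 was 0 with RLE, upper-quartile factors, no filter, DESeq2, GC correction with or without block, 1 fit, or without the steep GC libraries, and 0 to 1 with 1 library left out. Pathway genes called higher in UPCI-SCC-090 were 46 with GC correction or 1 fit and 52 with GC correction and block, against 29, and 12 to 33 with 1 library left out. Those called lower were 10 with RLE, upper-quartile factors, no filter or without the steep GC libraries, 9 with DESeq2 and 30 with GC correction and block, against 19, and 7 to 15 with 1 library left out. In UM-SCC-47 the ranges with 1 library left out were 6 to 7 members higher, and 36 to 69 pathway genes higher and 23 to 31 lower. For the difference between responses, members higher were 0 without the steep GC libraries, members lower were 0 with library size only and 2 with GC correction, and both were 0 to 1 with 1 library left out. The causes were not tested.

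The replicate numbers did not pair all libraries: same-numbered deviations correlated at 0.10, 0.79 and 0.21 in UPCI-SCC-090 and -0.15, 0.20 and 0.43 in UM-SCC-47. UPCI-SCC-090 JQ1 replicate 3 was closest to DMSO replicate 1 (0.79), and UM-SCC-47 JQ1 replicate 1 to DMSO replicate 2 (0.28). For the other JQ1 libraries the closest DMSO library had the same number. With the replicate block, 7 members and 37 pathway genes were called higher and 26 pathway genes lower in UPCI-SCC-090, where the block added the calls of GCLC (1.27 ± 0.31, adjusted p = 0.032) and TXNRD1 (0.98 ± 0.22, adjusted p = 0.025), and 6 members higher and 1 lower, with 51 pathway genes higher and 28 lower, in UM-SCC-47.

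Signs that changed belonged to values that were not called. NFE2L2 in UPCI-SCC-090 was -0.29 with library size only, -0.01 with upper-quartile factors, -0.20 with the block, -0.34 with GC correction, -0.46 with both, -1.27 without the steep GC libraries, and -1.04 to 0.67 with 1 library left out. In UM-SCC-47 it was -0.04 without the steep GC library and -0.04 to 1.10 with 1 library left out. Its difference between responses was -1.64 to 0.09 with 1 library left out. Its line difference was -0.05 with RLE, DESeq2 or GC correction and block, -0.04 with upper-quartile factors, -0.09 with the block, and -0.70 to 0.45 with 1 library left out. AKR1C1 in UM-SCC-47 was 0.05 with RLE or DESeq2, 0.08 without the steep GC library, and -0.34 to 0.08 with 1 library left out. The difference between responses of KEAP1 was 0.09 with GC correction, 0.10 with block added, 0.29 without the steep GC libraries, and -0.37 to 0.18 with 1 library left out. That of GCLC was 0.02 with RLE or DESeq2, 0.01 with no filter, and -0.27 to 0.40 with 1 library left out. Of 989 recomputed values of named pathway genes, 128 lost or gained a call and 0 changed sign.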
